A study of Mus musculus with 6 samples.

Results

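Actin filaments and the myosin II motors that pull on them give fibroblasts their shape, their grip and their ability to contract. Many of the genes for these proteins are switched on by the transcription factor SRF, which binds a sequence called the CArG box. Its partners MRTF-A and MRTF-B are held back by free actin and move to the nucleus when actin is built into filaments, so the supply of actin feeds back on actin genes. Myocardin, a further partner, drives the smooth muscle form of this programme. The 39 genes described here comprise SRF and its partners, the actins, transgelins and calponins, tropomyosins, myosin II chains, crosslinkers and LIM-domain proteins of this system. They were chosen by name and matched through their Entrez numbers, and all 39 were found among the 26532 genes of the table.

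RNA was sequenced in MEFs, fibroblasts cultured from mouse embryos. The 3 ORAI2 libraries came from MEFs given a recombinant adenovirus for ORAI2, which forms channels for store-operated calcium entry, and carry the genotype label ORAI2 Overexpression. The 3 GFP libraries came from MEFs given a GFP adenovirus and carry the genotype label WT. Every library shares the treatment label osteogenic differentiation and the cell type label mesenchymal stem cells, so both groups carried a virus and were under differentiation. The study asks what ORAI2 does in osteogenic differentiation. The sample labels give neither a time nor a BMP9 dose, and do not say whether libraries were separate cultures, so the tests reflect the spread over these libraries alone, which may be technical.

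Library totals lay between 18526884 and 18844436 counts. Orai2 was at 3658, 2836 and 2436 CPM (counts per 1000000 of the library total) in ORAI2 libraries, against 52.7, 48.9 and 48.9 CPM in GFP libraries. Of 14 fibroblast and mesenchymal markers 13 could be tested, of which 1 rose (Cd44) and 10 fell. Over all genes tested, 20.8% were called higher and 22.1% lower. The summed level of the 14 markers was 7694 to 8207 CPM in ORAI2 libraries against 9335 to 9862 CPM in GFP libraries. Thy1, a defining marker on that list, had at most 0.161 CPM in any library. The part of these markers in the results below was not tested. In these bulk samples, fewer cells of a type and less RNA per cell cannot be told apart.

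The members moved both ways. Of the 39 members, 33 passed the low-count filter, and of these 9 rose, 8 fell and 16 did not pass an adjusted p of 0.05 in the edgeR quasi-likelihood test of ORAI2 against GFP. Over all 13764 genes tested, 42.9% were called, 20.8% higher and 22.1% lower, against 51.5% of the tested members. Without GFP replicate 3 or ORAI2 replicate 1 the members that rose numbered 5. The median log2 fold change was -0.00 over the tested members and -0.00 over all tested genes. Only Tagln and Smtn were called with a change over 1.5-fold, which 8.89% of all tested genes were. ORAI2 and GFP libraries did not overlap for 11 tested members that were higher and 8 that were lower in ORAI2, and for 52.9% of all tested genes. Summed over the 39 members, the level was 7881 to 8070 CPM in ORAI2 libraries and 7823 to 8036 CPM in GFP libraries, and these ranges overlapped.

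**Figure D1:**
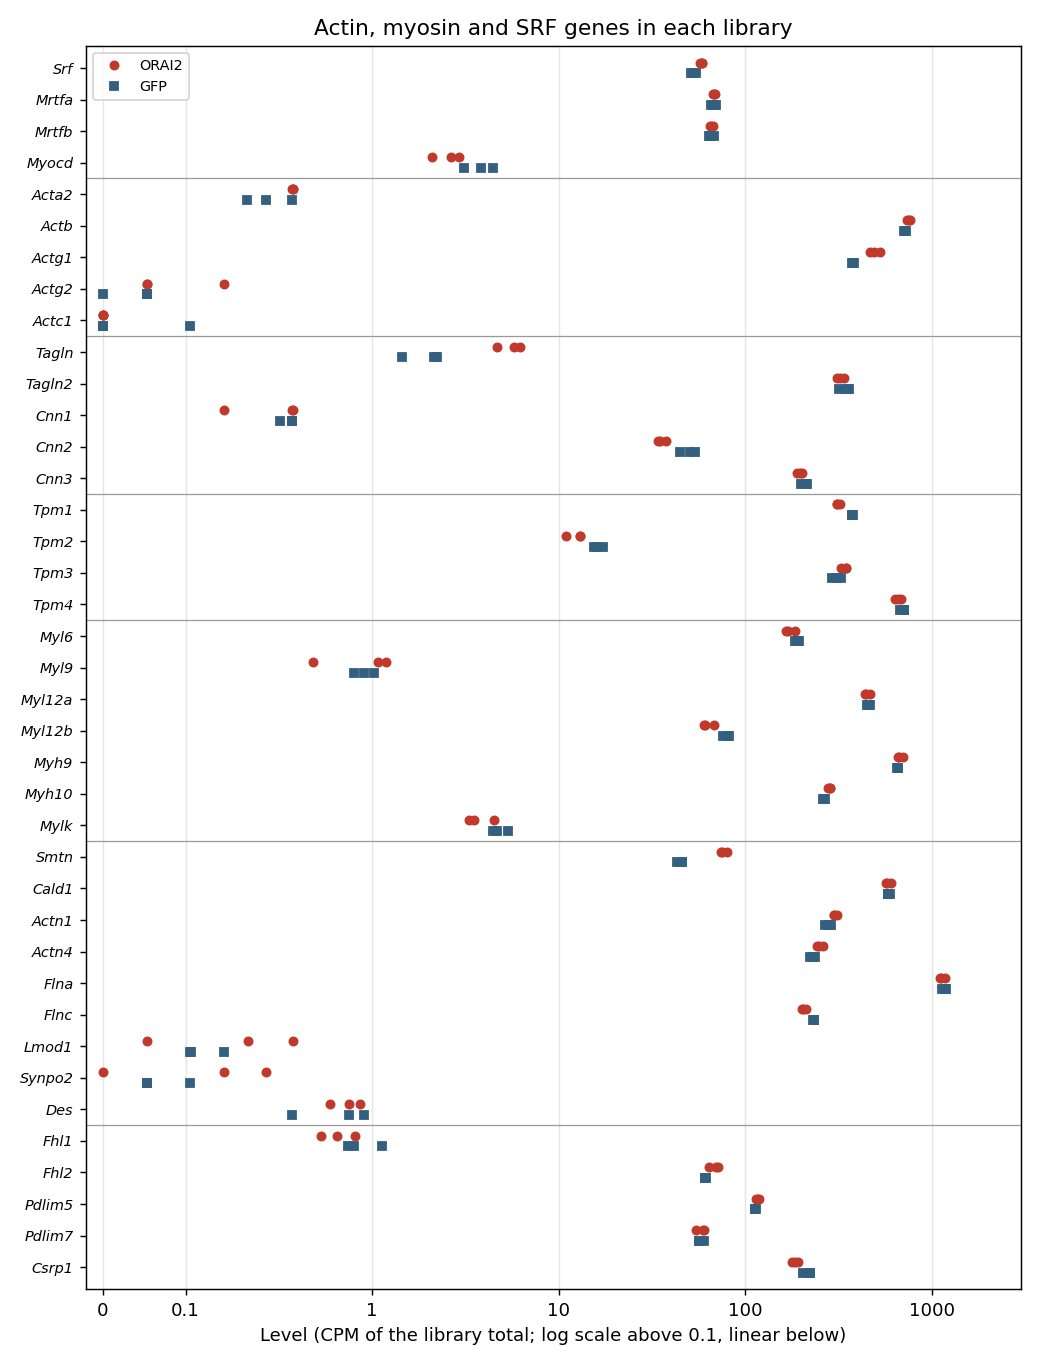
Level of each of the 39 genes in each library, in CPM on an axis that is logarithmic above 0.1 and linear below; red circles are the 3 ORAI2 libraries and blue squares the 3 GFP libraries, with lines between role groups. Most cytoskeletal genes lie above 10 CPM, whereas 9 members stay under 2 CPM in every library.

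Acta2, Cnn1, Lmod1, Synpo2, Actg2 and Actc1, genes of muscle cells, were nearly absent. Acta2, the smooth muscle alpha-actin gene, had 7, 7 and 7 counts in ORAI2 libraries and 7, 4 and 5 counts in GFP libraries. Cnn1, whose product calponin-1 binds actin in smooth muscle, had 3, 7 and 7 counts in ORAI2 libraries and 7, 7 and 6 in GFP libraries. These totals are close to the detection limit, since 3 counts correspond to 0.159 to 0.162 CPM. Lmod1 (leiomodin-1, an actin nucleator of smooth muscle) had at most 7 counts, Synpo2 (an actin-binding protein of muscle) at most 5, Actg2 (smooth muscle gamma-actin) at most 3, and Actc1 (cardiac actin) at most 2 counts in any library. Actc1 had no count in any ORAI2 library, which allows up to 3 counts in each. These 6 genes were under the low-count filter and were not tested, and a difference in them was not detectable at this depth.

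Another 3 members passed the filter at very low levels. Des, the intermediate filament of muscle, was at 0.862, 0.749 and 0.594 CPM in ORAI2 libraries and 0.371, 0.909 and 0.753 CPM in GFP libraries. Myl9, the regulatory light chain typical of smooth muscle, was at 1.08, 0.481 and 1.19 CPM in ORAI2 libraries and 0.902, 0.802 and 1.02 CPM in GFP libraries. For both genes the groups overlapped, and neither passed (adjusted p = 0.825 for Des and 0.992 for Myl9, edgeR). Fhl1, a LIM-domain protein of striated muscle, had 0.535 to 0.810 CPM in ORAI2 libraries and 0.743 to 1.13 CPM in GFP libraries, also overlapping (adjusted p = 0.297, edgeR). Myh11, the heavy chain that defines smooth muscle and was looked up as a marker, stayed at 0.0535 to 0.159 CPM over all 6 libraries.

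Of SRF and its partners, Srf rose and Myocd fell. Srf was at 58.6, 58.8 and 57.7 CPM in ORAI2 libraries and 51.4, 52.8 and 54.3 CPM in GFP libraries. The groups did not overlap, and the rise of 1.1-fold passed at an edgeR adjusted p of 0.0175 (log2 fold change 0.14, SE 0.04). The call for Srf did not hold in DESeq2 (adjusted p = 0.0859) or when GFP replicate 1 or 2 was left out (adjusted p = 0.0619 and 0.0551). Mrtfa (MRTF-A) averaged 68.2 ± 0.95 CPM in ORAI2 libraries and 67.8 ± 2.24 CPM in GFP libraries, and Mrtfb (MRTF-B) 66.1 ± 1.09 and 66.0 ± 2.23 CPM in ORAI2 and GFP libraries (SD, n = 3 each). The groups of both overlapped, with log2 fold changes of 0.01 and -0.00 (SE 0.04 each). Myocd (myocardin) was scarce, at 2.91, 2.09 and 2.64 CPM in ORAI2 libraries and 4.46, 3.85 and 3.12 CPM in GFP libraries. Its groups did not overlap, and it fell by 0.58 on the log2 scale (SE 0.19, adjusted p = 0.0242, edgeR). The Myocd call was lost with DESeq2 (adjusted p = 0.0828) and without GFP replicate 1, GFP replicate 2 or ORAI2 replicate 2 (adjusted p = 0.102, 0.0618 and 0.0977).

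The CArG box, the sequence that SRF binds, was looked for in a window from 250 bases before to 50 after each annotated gene start (RefSeq, GRCm38.p6, which is not the authors' build). The motif is the same read on either strand. Only exact boxes of 10 bases counted, with nothing but A or T between CC and GG, so looser forms were missed. Tagln, Actb, Actg2 and Myocd had no window and were not searched. At least 1 window held the motif for 8 of the 35 members with a window (22.9%), against 1.81% of all 27025 genes. The list was built around SRF and its targets, so this difference follows from the choice of members and is no result. The 8 members with a box were Actc1, Actg1, Cnn2, Fhl1, Fhl2, Myl6, Myl9 and Srf. Of them 3 rose (Actg1, Srf and Fhl2), 2 fell (Cnn2 and Myl6), 2 did not pass and 1 was not tested, so members with this motif moved both ways. The 250 bases before the start are shown for Srf, Actg1 and Cnn2, because these genes share the motif and Actg1 and Cnn2 moved in opposite directions. Capitals mark the CArG boxes. The Srf sequence lies on the minus strand at chr17:46556163-46556412 and its boxes begin at -82 and -62 from the start, the Actg1 sequence lies on the minus strand at chr11:120348496-120348745 with its box at -90, and the Cnn2 sequence lies on the plus strand at chr10:79988350-79988599 with its box at -56.
Srf: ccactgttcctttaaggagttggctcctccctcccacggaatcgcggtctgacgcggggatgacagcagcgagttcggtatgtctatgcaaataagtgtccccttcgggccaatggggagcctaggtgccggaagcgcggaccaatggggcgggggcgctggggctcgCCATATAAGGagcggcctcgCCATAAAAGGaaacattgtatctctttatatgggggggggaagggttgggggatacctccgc
Actg1: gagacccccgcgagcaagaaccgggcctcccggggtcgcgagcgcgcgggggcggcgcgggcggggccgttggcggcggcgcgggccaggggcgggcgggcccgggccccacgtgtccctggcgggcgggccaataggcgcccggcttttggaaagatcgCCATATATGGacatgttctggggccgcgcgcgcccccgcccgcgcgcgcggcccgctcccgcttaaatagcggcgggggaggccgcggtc
Cnn2: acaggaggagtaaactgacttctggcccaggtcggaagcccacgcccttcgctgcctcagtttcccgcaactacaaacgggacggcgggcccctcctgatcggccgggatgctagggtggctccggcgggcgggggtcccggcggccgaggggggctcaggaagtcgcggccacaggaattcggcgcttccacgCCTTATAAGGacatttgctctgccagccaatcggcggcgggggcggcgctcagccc
The boxes of the other called members and of the nearly absent Myl9 and Actc1 are shown with 10 bases on either side, so that the core can be compared between abundant and scarce members. Fhl2 has 1 box at each of its 2 annotated starts on the minus strand, at -31 from the downstream start (window chr1:43163912-43164211) and at -96 from the upstream start (window chr1:43196712-43197011). The box of Myl6 begins at -50 (window chr10:128492960-128493259) and that of Actc1 at -47 (window chr2:114052826-114053125), both on the minus strand, and that of Myl9 at -161 on the plus strand (window chr2:156775214-156775513).
Fhl2, downstream start: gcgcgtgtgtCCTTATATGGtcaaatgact
Fhl2, upstream start: catttagagaCCAAAAAAGGcttgcaggag
Myl6: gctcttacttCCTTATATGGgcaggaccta
Myl9: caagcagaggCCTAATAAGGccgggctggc
Actc1: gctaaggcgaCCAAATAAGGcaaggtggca
Myl6 and the downstream start of Fhl2 carry the same core, CCTTATATGG, and Myl6 was called lower whereas Fhl2 was called higher. Both changes were small (log2 fold changes -0.15 and 0.16). The Myl6 call held in 2 and the Fhl2 call in 5 of the 6 fits that left out a library.

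A second motif, MCAT (CATTCC, or GGAATG on the other strand), is bound by the TEAD factors, which work with YAP. It was found for 13 of the 35 members (37.1%), against 16.6% of all genes with a window, and no match overlapped a CArG box. The members were chosen by name, so this difference too is no result. The 35 members had 46 windows and the 27025 genes 32851, and a gene with more windows has more places for a match. Of these 13 members 3 rose, 2 fell, 6 did not pass and 2 were not tested. Over all genes, members included, 163 tested genes had a CArG box in a window. Of them 39 rose (23.9%) and 47 fell (28.8%), where over the 10709 tested genes with a window 21.2% rose and 22.3% fell. For MCAT there were 1566 tested genes, of which 308 rose (19.67%) and 386 fell (24.65%).

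Among the actins, the cytoplasmic gamma form rose. Actg1 was at 488.8, 529.6 and 469.6 CPM in ORAI2 libraries, against 376, 381 and 384 CPM in GFP libraries. The groups lay apart, and the rise (1.3-fold, edgeR adjusted p = 1.68e-05, log2 fold change 0.38 with an SE of 0.04) held in all 13 alternatives. Actb, the cytoplasmic beta-actin gene often used as a loading control, was at 743, 771 and 754 CPM in ORAI2 libraries and 726, 719 and 711 CPM in GFP libraries. Every ORAI2 library lay above every GFP library, but the log2 fold change of 0.07 (SE 0.03) did not pass (adjusted p = 0.121, edgeR). Scaled to transcript length, Actb stayed the more abundant, at 394 ± 7.29 CPM per kilobase in ORAI2 libraries and 374 ± 3.72 in GFP libraries. Actg1 stood at 254 ± 15.7 CPM per kilobase in ORAI2 libraries and 195 ± 2.16 in GFP libraries (SD, n = 3 each). Its share of the counts of both genes was 39.7%, 40.7% and 38.4% in ORAI2 libraries, against 34.1%, 34.7% and 35.1% in GFP libraries (two-sided exact permutation test, p = 0.1, the smallest that 3 against 3 libraries allow). The Actg1 value is uncertain, because 56.7% of the 50-base stretches of its principal transcript also occur in transcripts of other annotated genes, chiefly Gm12715 (14.2% for Actb).

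The largest rises were those of Tagln and Smtn, genes whose products bind actin in contractile cells. Tagln, which encodes transgelin (SM22-alpha), a standard early marker of smooth muscle, had 116, 87 and 107 counts in ORAI2 libraries, against 42, 40 and 27 counts in GFP libraries. This was 6.25, 4.65 and 5.78 CPM in ORAI2 libraries and 2.23, 2.14 and 1.45 CPM in GFP libraries. The groups did not overlap, and Tagln rose 2.85-fold at an edgeR adjusted p of 3.80e-05 (log2 fold change 1.51, SE 0.19). Smtn, which encodes smoothelin, an actin-binding protein of contractile smooth muscle, was at 79.9, 75.7 and 74.4 CPM in ORAI2 libraries and 43.0, 46.2 and 46.2 CPM in GFP libraries. It rose 1.69-fold with no overlap (log2 fold change 0.76, SE 0.05, adjusted p = 9.99e-08, edgeR). Both calls held in every alternative that tested them. No 50-base stretch of either principal transcript occurs in another gene. The defining smooth muscle genes Acta2, Cnn1 and Myh11 stayed at or under 0.378 CPM in every library, and of the 5 tested genes among 12 smooth muscle and pericyte markers Tagln rose, Notch3 fell (log2 fold change -1.09) and 3 did not pass. The summed level of that marker list, of which 11 genes were in the table, was 142 to 151 CPM in ORAI2 libraries and 150 to 161 CPM in GFP libraries. Most of it came from Cspg4 (means of 107 and 112 CPM in ORAI2 and GFP libraries) and Mcam (27.5 and 26.2 CPM). Of the 11 genes, 6 had under 10 counts in every library. The part of this list in the result was not tested.

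**Figure D2:**
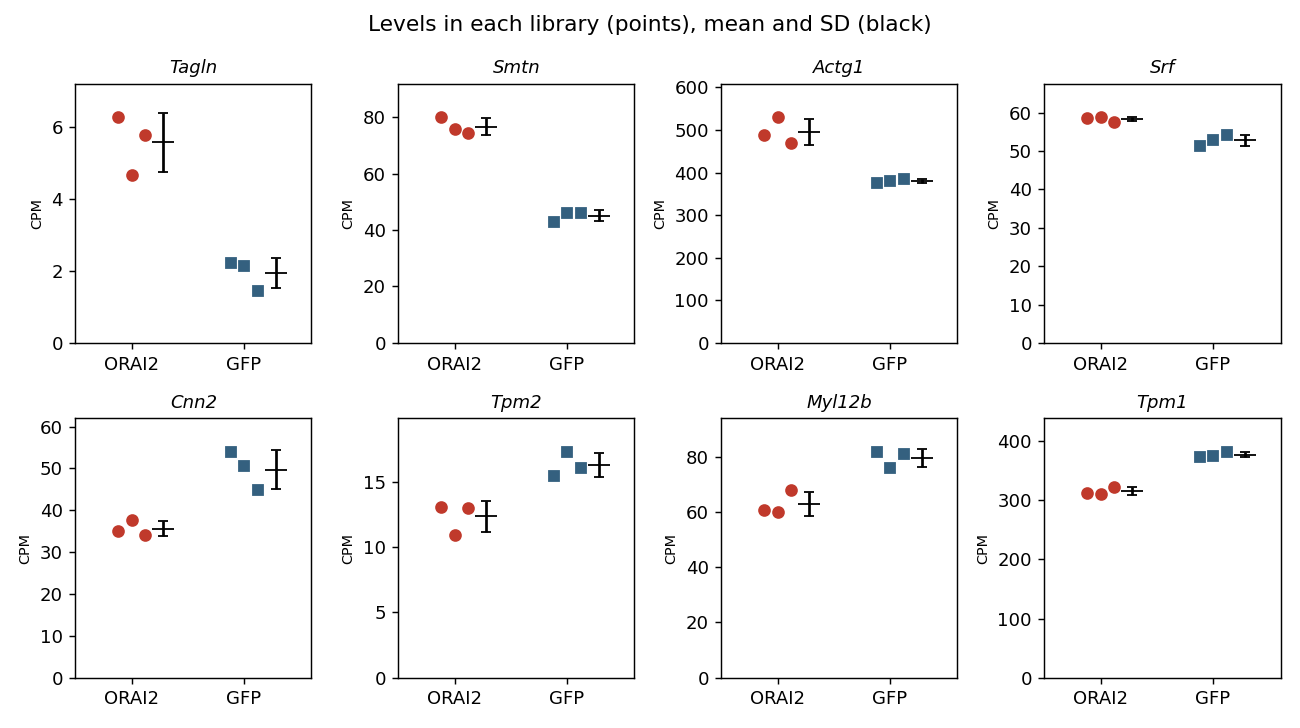
CPM of 8 members in each library, on axes that start at 0, with ORAI2 libraries as red circles, GFP libraries as blue squares and the mean and SD over 3 libraries in black. Tagln, Smtn, Actg1 and Srf are higher and Cnn2, Tpm2, Myl12b and Tpm1 lower in all ORAI2 libraries.

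None of the other transgelin and calponin members was called higher. Tagln2 (transgelin-2, the form of non-muscle cells) was at 322, 341 and 312 CPM in ORAI2 libraries and 353, 361 and 319.6 CPM in GFP libraries, and the groups overlapped (log2 fold change -0.09, adjusted p = 0.183, edgeR). Without GFP replicate 3 it passed as lower, with a log2 fold change of -0.15 (adjusted p = 0.0170). Cnn2, calponin-2 of non-muscle cells, was at 35.1, 37.6 and 34.2 CPM in ORAI2 libraries and 53.9, 50.5 and 44.8 CPM in GFP libraries. It fell in all ORAI2 libraries (log2 fold change -0.49, SE 0.07, adjusted p = 1.29e-04, edgeR), and the call held in all 13 alternatives. Cnn3, acidic calponin, was at 189, 196 and 202 CPM in ORAI2 libraries and 214, 212 and 199 CPM in GFP libraries, with overlap (log2 fold change -0.09, adjusted p = 0.0981). Cnn3 also passed without GFP replicate 3, with a log2 fold change of -0.13 (adjusted p = 0.0203). Cnn2 took 14.4% to 16.1% of the counts of both calponins in ORAI2 libraries, against 18.4% to 20.1% in GFP libraries.

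Tropomyosins wrap along actin filaments and set which myosins and severing proteins can reach them, and of their 4 genes 1 rose and 2 fell. Tpm1 was at 312, 310.2 and 323 CPM in ORAI2 libraries and 373, 375 and 381 CPM in GFP libraries. Tpm2 was much scarcer, at 13.1, 10.96 and 13.0 CPM in ORAI2 libraries and 15.4, 17.3 and 16.1 CPM in GFP libraries. Both fell without overlap (log2 fold changes -0.26, SE 0.03, and -0.40, SE 0.09; adjusted p = 5.45e-05 and 0.00319, edgeR) and did so in all 13 alternatives. Tpm3 was at 349, 348 and 327 CPM in ORAI2 libraries and 311, 327 and 293 CPM in GFP libraries. It passed as higher (log2 fold change 0.13, SE 0.05, adjusted p = 0.0314, edgeR), though the lowest ORAI2 library lay just under the highest GFP library. The Tpm3 call was lost when GFP replicate 1 or 3 was left out (adjusted p = 0.0564 and 0.117), and likewise for ORAI2 replicate 1 or 2 (adjusted p = 0.0832 and 0.0725). Its log2 fold change was 0.09 without GFP replicate 3, and 62.4% of its 50-base stretches also occur in Tpm3-rs7. Tpm4, the most abundant of the family per kilobase (310.4 ± 12.4 in ORAI2 libraries and 329 ± 8.15 in GFP libraries), did not pass (log2 fold change -0.09, adjusted p = 0.0917, edgeR), but did without GFP replicate 3 (log2 fold change -0.12, adjusted p = 0.0420).

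By share of the counts of the family, Tpm1 made up 23.9%, 22.9% and 24.4% in ORAI2 libraries, against 26.5%, 26.2% and 27.8% in GFP libraries. Tpm3 made up 26.7%, 25.7% and 24.6% in ORAI2 libraries, against 22.1%, 22.8% and 21.3% in GFP libraries. For both shares the groups did not overlap (exact permutation p = 0.1 each, the smallest possible). Tpm3 took more of the family's unscaled counts than Tpm1 in all ORAI2 libraries and less in all GFP libraries. Scaled to transcript length, Tpm1 stayed above Tpm3 in every library. In ORAI2 libraries Tpm1 was at 164, 163 and 170 CPM per kilobase and Tpm3 at 156, 156 and 146. The share of Tpm4 was 49.7 ± 1.14% in ORAI2 libraries and 49.9 ± 0.36% in GFP libraries, and overlapped. Of the 10 shares computed over all families 7 had groups apart, and none can pass a threshold of 0.05 with 3 libraries a group.

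**Figure D3:**
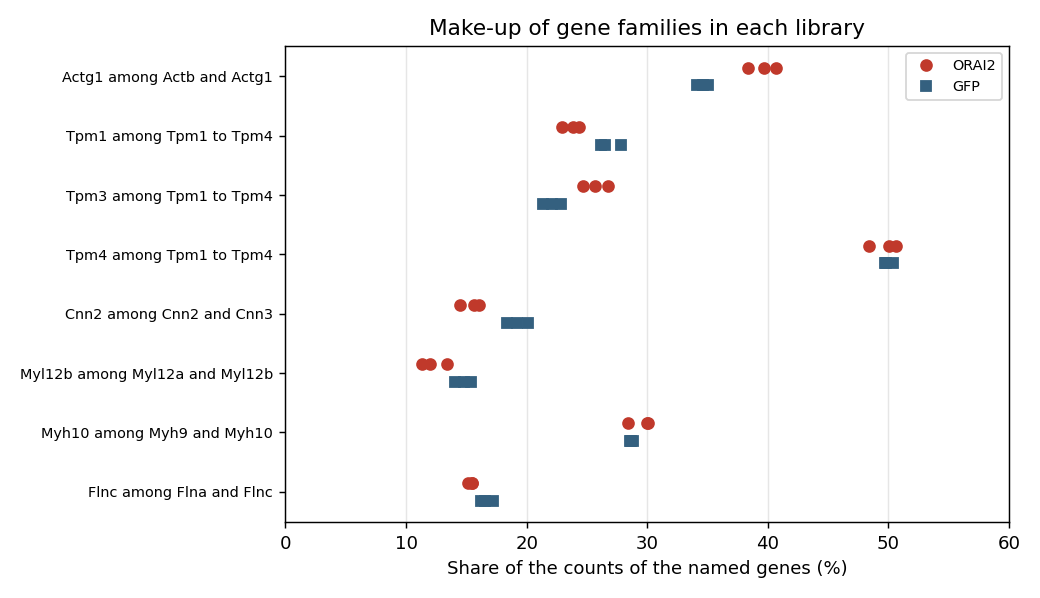
Share of the counts of the named genes taken by 1 of them, in percent, in each ORAI2 library (red circles) and GFP library (blue squares); shares are not scaled to transcript length. The shares of Actg1 and Tpm3 are higher and those of Tpm1, Cnn2, Myl12b and Flnc lower in all ORAI2 libraries, while those of Tpm4 and Myh10 overlap.

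Myosin II is a hexamer of heavy chains, essential light chains and regulatory light chains, whose phosphorylation switches the motor on. The main non-muscle heavy chain gene Myh9 was at 699.7, 667 and 665 CPM in ORAI2 libraries and 662, 653 and 662 CPM in GFP libraries, which did not overlap but did not pass (log2 fold change 0.04, SE 0.04, adjusted p = 0.450, edgeR). Myh10, the heavy chain of non-muscle myosin IIB, was at 278, 287 and 285 CPM in ORAI2 libraries and 266, 261 and 268 CPM in GFP libraries. It rose by a log2 fold change of 0.09 (SE 0.03, adjusted p = 0.0394, edgeR), a call that did not hold when low counts were kept (adjusted p = 0.0803), nor in 5 of the 6 fits that left out a library. Those 5 left out GFP replicate 1, 2 or 3 or ORAI2 replicate 2 or 3, with adjusted p-values of 0.0562, 0.159, 0.0622, 0.0715 and 0.0811.

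Of the light chains, Myl12b and Myl6 fell. Myl12b, a regulatory light chain, was at 60.7, 60.05 and 67.8 CPM in ORAI2 libraries and 81.6, 75.8 and 81.1 CPM in GFP libraries, and fell without overlap (log2 fold change -0.34, SE 0.05, adjusted p = 2.51e-04, edgeR), also in all 13 alternatives. Its near-identical relative Myl12a was at 444, 469 and 438 CPM in ORAI2 libraries and 450, 462 and 466 CPM in GFP libraries, with overlap (log2 fold change -0.03, SE 0.04, adjusted p = 0.509). As 29.2% of the 50-base stretches of Myl12a and 9.17% of those of Myl12b occur in the other gene, their separate values are uncertain. Myl6, the essential light chain, was at 171, 185 and 165 CPM in ORAI2 libraries and 193, 196 and 186 CPM in GFP libraries. The groups barely separated (log2 fold change -0.15, SE 0.04, adjusted p = 0.0173, edgeR), and 53.2% of its stretches occur in other genes. The Myl6 call was lost when GFP replicate 1 or 2 was left out (adjusted p = 0.0568 and 0.0690), and likewise for ORAI2 replicate 1 or 3 (adjusted p = 0.0669 and 0.0915). Mylk, the kinase that phosphorylates regulatory light chains, was at 4.53, 3.32 and 3.51 CPM in ORAI2 libraries and 4.46, 4.65 and 5.38 CPM in GFP libraries. Its groups overlapped and it did not pass (log2 fold change -0.35, SE 0.15, adjusted p = 0.0814, edgeR), but passed without ORAI2 replicate 1 (log2 fold change -0.50, adjusted p = 0.0333).

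Proteins that crosslink filaments or lie along them had smaller differences than Smtn. Actn1 and Actn4, the non-muscle alpha-actinins, rose together, at 313, 301 and 301 CPM and 262, 249.7 and 244 CPM in ORAI2 libraries, against 288, 284 and 269 CPM and 233, 236 and 223 CPM in GFP libraries. Neither overlapped between the groups, and both had a log2 fold change of 0.12 (SE 0.04; adjusted p = 0.0296 and 0.0259, edgeR). The Actn1 call was lost without GFP replicate 2, GFP replicate 3 or ORAI2 replicate 1 (adjusted p = 0.0646, 0.108 and 0.0799), and the Actn4 call without GFP replicate 3 or ORAI2 replicate 1 (adjusted p = 0.0917 and 0.0872). Flna (filamin A), the member with the most counts, was at 1188, 1121 and 1105 CPM in ORAI2 libraries and 1202, 1181 and 1132 CPM in GFP libraries, with overlap (log2 fold change -0.05, adjusted p = 0.400). Flnc, the filamin typical of muscle, was at 211, 205 and 202 CPM in ORAI2 libraries and 233, 235 and 235 CPM in GFP libraries. It fell in every ORAI2 library (log2 fold change -0.19, SE 0.03, adjusted p = 6.92e-04, edgeR), and the call held in all 13 alternatives. Cald1 (caldesmon, which restrains myosin on actin) did not pass (log2 fold change -0.01, adjusted p = 0.888, edgeR) and averaged 587 ± 19.9 CPM in ORAI2 libraries and 589 ± 9.69 CPM in GFP libraries (SD, n = 3 each).

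LIM-domain proteins dock on filaments and adhesions, and some carry signals to the nucleus. Fhl2, an SRF target that also binds SRF, was at 71.4, 64.1 and 70.2 CPM in ORAI2 libraries and 60.9, 61.4 and 60.7 CPM in GFP libraries. The rise (log2 fold change 0.16, SE 0.05, adjusted p = 0.0150, edgeR) had no overlap and was lost without ORAI2 replicate 1 (log2 fold change 0.14, adjusted p = 0.0614). Csrp1 (cysteine- and glycine-rich protein 1) was at 185, 193 and 179 CPM in ORAI2 libraries and 223, 222 and 206 CPM in GFP libraries. It fell without overlap (log2 fold change -0.23, SE 0.04, adjusted p = 0.00117, edgeR), also in all 13 alternatives. Pdlim5 and Pdlim7, PDZ and LIM proteins of the filament, had log2 fold changes of 0.04 and 0.00 that did not pass (adjusted p = 0.368 and 0.975, edgeR). Their levels were 117 ± 2.10 and 58.2 ± 2.99 CPM in ORAI2 libraries and 113 ± 0.65 and 58.0 ± 2.20 CPM in GFP libraries (SD, n = 3 each).

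**Figure D4:**
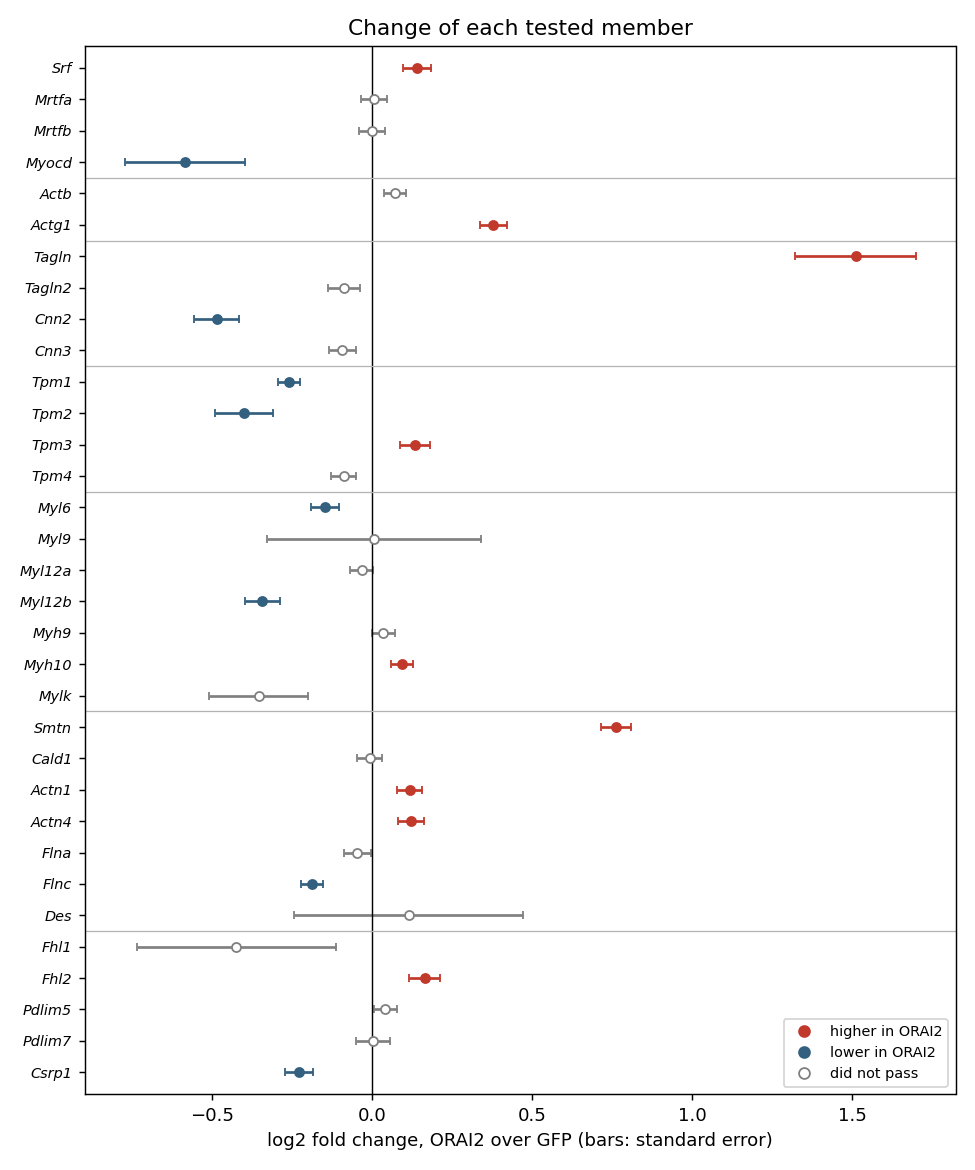
Log2 fold change (ORAI2 over GFP, edgeR) of the 33 tested members with its standard error, grouped by role; red marks members that rose, blue those that fell and open circles those that did not pass. Tagln (1.51) and Smtn (0.76) stand furthest to the right, and most other members lie within 0.5 of 0.

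Among the 27 tested members at 10 CPM or more in GFP libraries, the median coefficient of variation was 3.69% over ORAI2 libraries and 2.98% over GFP libraries, with a maximum of 9.77% and 9.25%. Of the 9 rises, 3 (Actg1, Tagln and Smtn) held in every alternative that tested them and 6 were lost in at least 1. Of the 8 falls, 6 (Cnn2, Tpm1, Tpm2, Myl12b, Flnc and Csrp1) held in every one and 2 were lost in at least 1.

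Other genes of the pathway were counted by list. Of 24 tested further SRF and MRTF targets, 4 rose and 9 fell (54.2% called, against 42.9% of all tested genes), with a median log2 fold change of -0.10. Ankrd1, a nuclear and sarcomeric ankyrin-repeat protein, was at 109, 98.0 and 98.0 CPM in ORAI2 libraries and 55.2, 53.0 and 49.9 CPM in GFP libraries (1.92-fold, adjusted p = 7.06e-08, edgeR). Mcl1, a survival protein of the BCL2 family, rose 1.21-fold (adjusted p = 9.40e-05). Both were higher in all ORAI2 libraries. Thbs1, the matrix glycoprotein thrombospondin-1, was at 319, 296 and 319 CPM in ORAI2 libraries and 953, 803 and 784 CPM in GFP libraries (log2 fold change -1.45, adjusted p = 1.57e-08), and Lima1 (EPLIN, which bundles actin) fell by 0.52 on the log2 scale (adjusted p = 1.78e-06, edgeR). Vcl (vinculin, a link between actin and adhesions) also fell, by 0.34 on the log2 scale (adjusted p = 9.25e-06). The immediate-early targets Egr1, Fos and Junb, transcription factors that respond quickly to stimuli, fell with log2 fold changes of -0.82, -0.79 and -0.26 (edgeR). Their relatives on the same list, Egr2 (log2 fold change -0.25, adjusted p = 0.240) and Fosb (log2 fold change 0.58, adjusted p = 0.0791), were not called by edgeR and differed in sign. Ccn1 and Ccn2, also on this list, were called higher (log2 fold changes 0.15 and 0.24, adjusted p = 0.00501 and 0.00160, edgeR). Both were higher in every ORAI2 library.

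Genes that assemble and sever filaments also moved both ways. Of 34 tested, 9 rose and 9 fell (52.9% called), with a median log2 fold change of 0.02. Over all tested genes 42.9% were called, 20.8% higher and 22.1% lower. The number that fell was 5 without GFP replicate 1, GFP replicate 2 or ORAI2 replicate 1. Eps8, which caps and bundles filaments, was at 286, 258 and 272 CPM in ORAI2 libraries and 196, 183 and 175 CPM in GFP libraries (1.46-fold, adjusted p = 3.36e-06, edgeR). Pfn1 (profilin-1, which delivers actin monomers) rose 1.18-fold, to 283, 285 and 285 CPM in ORAI2 libraries, against 241, 237 and 241 CPM in GFP libraries. Both were higher in every ORAI2 library. Gsn (gelsolin, a calcium-activated severing protein) was at 129.5, 137 and 126 CPM in ORAI2 libraries and 222, 222 and 206 CPM in GFP libraries (log2 fold change -0.73, adjusted p = 1.12e-07, edgeR). Dstn (destrin, which also severs filaments) fell by 0.31 on the log2 scale (adjusted p = 1.71e-04), while its relative Cfl1 (cofilin-1) rose with a log2 fold change of 0.17 (adjusted p = 0.00261, edgeR).

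Of 36 other myosins and muscle-type partners listed, 21 were tested, of which 4 rose and 13 fell. Their median log2 fold change was -0.18. This was 81.0% called, where over all tested genes 42.9% were called, 20.8% higher and 22.1% lower. Palld (palladin, an actin scaffold) was at 96.4, 98.0 and 105 CPM in ORAI2 libraries and 143, 139 and 139 CPM in GFP libraries, and Myo18a (an unconventional myosin) at 114, 101 and 116 CPM in ORAI2 libraries and 173, 163 and 180 CPM in GFP libraries. These falls had log2 fold changes of -0.50 and -0.64 (adjusted p = 1.23e-06 and 1.44e-06, edgeR). Pdlim1, a PDZ and LIM protein, rose 1.19-fold (adjusted p = 0.00649, edgeR).

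**Figure D5:**
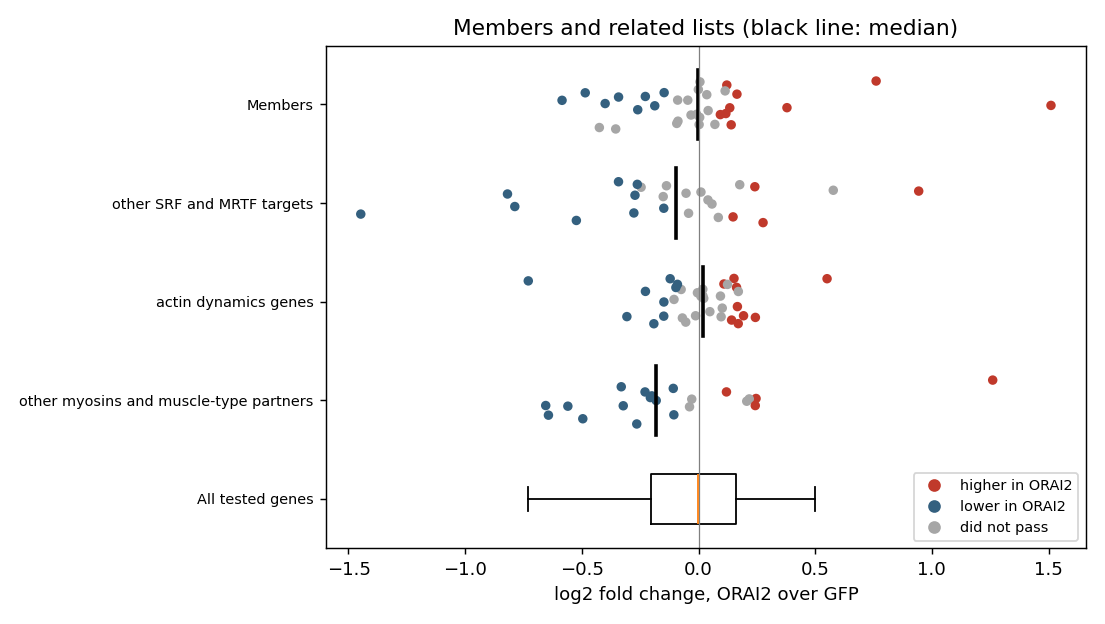
Log2 fold change (ORAI2 over GFP) of each tested gene among the members and in 3 further lists, with red for genes that rose, blue for genes that fell, grey for genes that did not pass and a black line at each median; the box gives the quartiles of all tested genes and its whiskers the 5 and 95 percentiles. The members centre on -0.00 and the other myosins and muscle-type partners on -0.18.

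Among markers of other cell types, both tested endothelial genes (Kdr and Vwf) rose and 2 of 3 tested macrophage genes (Mpeg1 and Cd14) fell. The summed level of 5 endothelial markers was 16.3 to 17.5 CPM in ORAI2 libraries and 6.42 to 8.88 CPM in GFP libraries, and that of 4 macrophage markers 26.2 to 35.8 CPM in ORAI2 libraries and 51.5 to 55.5 CPM in GFP libraries. The endothelial sum was nearly all Kdr and Vwf, since Pecam1, Cdh5 and Tek had at most 7, 3 and 5 counts in any library. Of the macrophage list, Csf1r had at most 4 counts and Adgre1 was not in the table. Skeletal muscle markers, 9 in the table with 3 at 0 in every library, summed to 0.909 to 1.19 CPM in ORAI2 libraries and 0.588 to 0.646 CPM in GFP libraries. Most of this was Ttn (means of 0.843 and 0.517 CPM in ORAI2 and GFP libraries), which did not pass (adjusted p = 0.0962, edgeR). Of these 9 genes, 8 had under 10 counts in every library. Cardiac muscle markers, also 9 with 3 at 0, of which Tnnt2 was tested and rose, summed to 1.98 to 2.75 CPM in ORAI2 libraries and 0.963 to 1.75 CPM in GFP libraries. Most of this sum was Tnnt2 (means of 1.72 and 0.711 CPM in ORAI2 and GFP libraries). Here too 8 of the 9 genes had under 10 counts in every library. Of 5 epithelial markers 1 was at 0 and 2 were tested. Grhl2 rose (means of 2.37 and 0.499 CPM in ORAI2 and GFP libraries). Krt18 was lower in the mean (2.12 and 2.48 CPM) but did not pass (log2 fold change -0.23, adjusted p = 0.372, edgeR). The sum of this list was 4.21 to 5.12 CPM in ORAI2 libraries and 2.74 to 3.74 CPM in GFP libraries. Their part in the results above was not tested.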

How the data were processed

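Per the labels' protocols, RNA was taken up in TRIzol, mRNA was selected with oligo(dT) beads, and cDNA was primed with random hexamers. The build GRCm39 and the tools Salmon 1.4.0 and HISAT2 2.0.4 are named per the submitters' processing notes. Their roles, and whether counting used strand, these notes do not state. Deposited values, per the file headers, are 1 whole-number count and 1 TPM value for each gene in each library, and no source says if counts are reads or rounded estimates. TPM columns as deposited were out of step with the equally named count columns (r between 0.0701 and 0.564 over 11295 genes, 4 of the 6 columns correlating best with the count column of the next number), and the TPM column named ORAI2-3 had Orai2 at 36.3 TPM, near the GFP columns. No test used TPM.

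Symbols came from a RefSeq table of GRCm38.p6, which matched 25631 of 26532 genes (96.6%). Counts as deposited were tested with edgeR 4.0.16 (R 4.3.3, quasi-likelihood F-test, TMM factors 0.990 to 1.01, filterByExpr with a minimum count of 10), ORAI2 against GFP, with Benjamini-Hochberg adjustment over 13764 genes and calls at an adjusted p under 0.05. Levels are CPM of the library total without TMM. Standard errors come from the F statistic. CPM per kilobase uses the longest GENCODE M21 principal transcript. Within groups, pairs of libraries differed by a chi-square per gene of 2.54 to 4.50, so none was a copy. The floor of 3 counts covers counting error only.

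The members and lists were chosen with earlier results of these data known. Every member is named, with Orai2 and, per further list and direction, the 2 called genes of smallest p with at least 5 CPM; some results of this rule are not reported here. Vcl, Egr1, Egr2, Fos, Fosb, Junb, Cfl1, Notch3, Thy1, Myh11, Cd44, Kdr, Vwf, Mpeg1, Cd14, Tnnt2 and Grhl2 were named after their values were seen, as were the motif counts over all genes. The same holds for Ccn1, Ccn2, Cspg4, Mcam, Pecam1, Cdh5, Tek, Csf1r, Adgre1, Krt18 and Ttn. On simulated data the fit recovered small changes less often than large ones, and its share of false calls was above the nominal adjusted p, which bears on calls of small fold change. Alternatives were RLE and library-size normalisation, no filter, 5 CPM in 3 libraries, DESeq2 1.42.0, limma-voom (limma 3.58.1), a replicate block and each library left out.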

Additional observations from a re-analysis of the deposited data

Results flagged for a closer look

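The deposited TPM columns, which entered no test, held values for Smtn and Tagln that, in every column named ORAI2, were more than 1.5 times the highest GFP column. Smtn was at 44.28 TPM in the lowest ORAI2 column and Tagln at 6.19 TPM, against 28.7 TPM for Smtn and 3.46 TPM for Tagln in the highest GFP column. The 6.19 TPM of Tagln lay in the column named ORAI2-3, which had Orai2 at 36.3 TPM. The GFP columns had Orai2 at 24.8, 24.9 and 38.2 TPM, so that column may not be an ORAI2 library. Because the TPM columns are out of step with the equally named count columns, they are given as values only.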

How the results depend on the processing

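No called member or gene named by the rule changed direction under any alternative. RLE, library-size normalisation, no filter, a filter at 5 CPM, DESeq2 and limma-voom gave 8 or 9 members higher and 7 or 8 lower, with 4623 to 5949 genes called in all. Each library left out in turn gave 5 to 8 members higher and 6 to 11 lower, 5 higher without GFP replicate 3 and without ORAI2 replicate 1, and 4943 to 5661 genes called in all. Among further lists, the fallen genes of actin dynamics numbered 5 to 9 when a library was left out, with 5 without GFP replicate 1, GFP replicate 2 or ORAI2 replicate 1. In these fits fewer libraries entered. No scaling moved the median of all genes by more than 0.01 on the log2 scale.

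With the replicate number as a block (replicate block) 9 members were higher, 8 lower and 6246 genes called. Same-numbered libraries correlated in their deviations at 0.19, 0.0946 and 0.19, and each library correlated best with its own number, a hint from the data and not the design. At these totals, depth limits the 9 members under 2 CPM.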
